A study of Mus musculus with 9 samples.

Results

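The 43 DNA replication genes described here encode the proteins that license, unwind and copy chromosomal DNA. They were taken as a named list, from the origin recognition subunits to the chromatin assembly factor. The list was chosen with earlier results of these data known. All 43 were matched by symbol to the 19369 Entrez genes of the mouse RNA-Seq files. The samples came from wild-type C57BL/6 embryos at 3 stages, with 3 replicates per stage. At E10.5 each sample was periocular neural crest (pNC) pooled from 26 eyes, dissected free of optic cup, lens vesicle and overlying ectoderm. The E10.5 tissue was first incubated in the enzyme dispase, a step not described for the later stages. Its effect cannot be told apart from that of stage in comparisons with E10.5. At E14.5 and E16.5 each sample was whole cornea, pooled from 18 and 12 corneas, respectively, so that epithelium, stroma and endothelium were measured together. No sample carried a mutation or an experimental treatment. In such bulk tissue, fewer replicating cells, less replication RNA per cell and a changed mix of cell types cannot be told apart. The E10.5 samples were dissected free of ectoderm and the later samples held epithelium, so this difference goes with stage.

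DNA replication starts with the loading of the Mcm2 to Mcm7 helicase onto origins by the origin recognition complex, Cdc6 and Cdt1, and the loaded helicase is switched on in S phase when Cdc45 and the GINS complex join it. Polymerase alpha with primase then starts each strand, and polymerases delta and epsilon extend it on the sliding clamp Pcna, which the Rfc complex loads. Most of these genes are transcribed under E2F factors in dividing cells, and their RNA is known to be low in tissues that have stopped dividing.

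All 43 replication genes fell between the E10.5 pNC and the E16.5 cornea, and none rose in any pair of stages. A gene is said to have fallen or risen here when its adjusted p was under 0.05 in the quasi-likelihood test of edgeR, adjusted by Benjamini-Hochberg over the 14771 genes tested. All 43 genes were among those tested. From E10.5 to E14.5, 41 of the 43 fell, where 27.5% of all genes tested fell, and the median log2 fold change of the 43 was -0.89 against 0.01 over all genes. From E10.5 to E16.5, 43 of 43 fell against a background of 34.7%, with a median of -2.02 against 0.00. From E14.5 to E16.5, 43 of 43 fell against 17.5%, with a median of -1.04 against -0.02. The 3 pairs share their samples, so these counts are not independent of one another. Because the 43 genes were chosen with earlier results known, the shares of all genes describe the list and do not test it.

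With a fall of at least 2-fold also required, 20 of the 43 genes passed from E10.5 to E14.5, where 7.97% of all genes did. The same rule was met by 41 genes from E10.5 to E16.5 against 15.4% of all genes, the exceptions being Tyms and Rfc1. It was met by 25 genes from E14.5 to E16.5 against 5.47%. By FPKM, all samples of the later stage lay below all samples of the earlier stage for 41, 43 and 43 genes in the 3 pairs, respectively. This held for 29.6%, 44.1% and 38.3% of all genes tested. FPKM do not carry the scaling used in the test, here and wherever overlap of samples is given below. In the E16.5 samples, the median log2 ratio of the 43 genes to E10.5 was -2.21, -2.23 and -2.16 by FPKM. With that scaling it was -2.08, -2.06 and -2.02. The 2 genes whose E14.5 samples overlapped those at E10.5 were Rfc1 and Gins3.

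**Figure D1:**
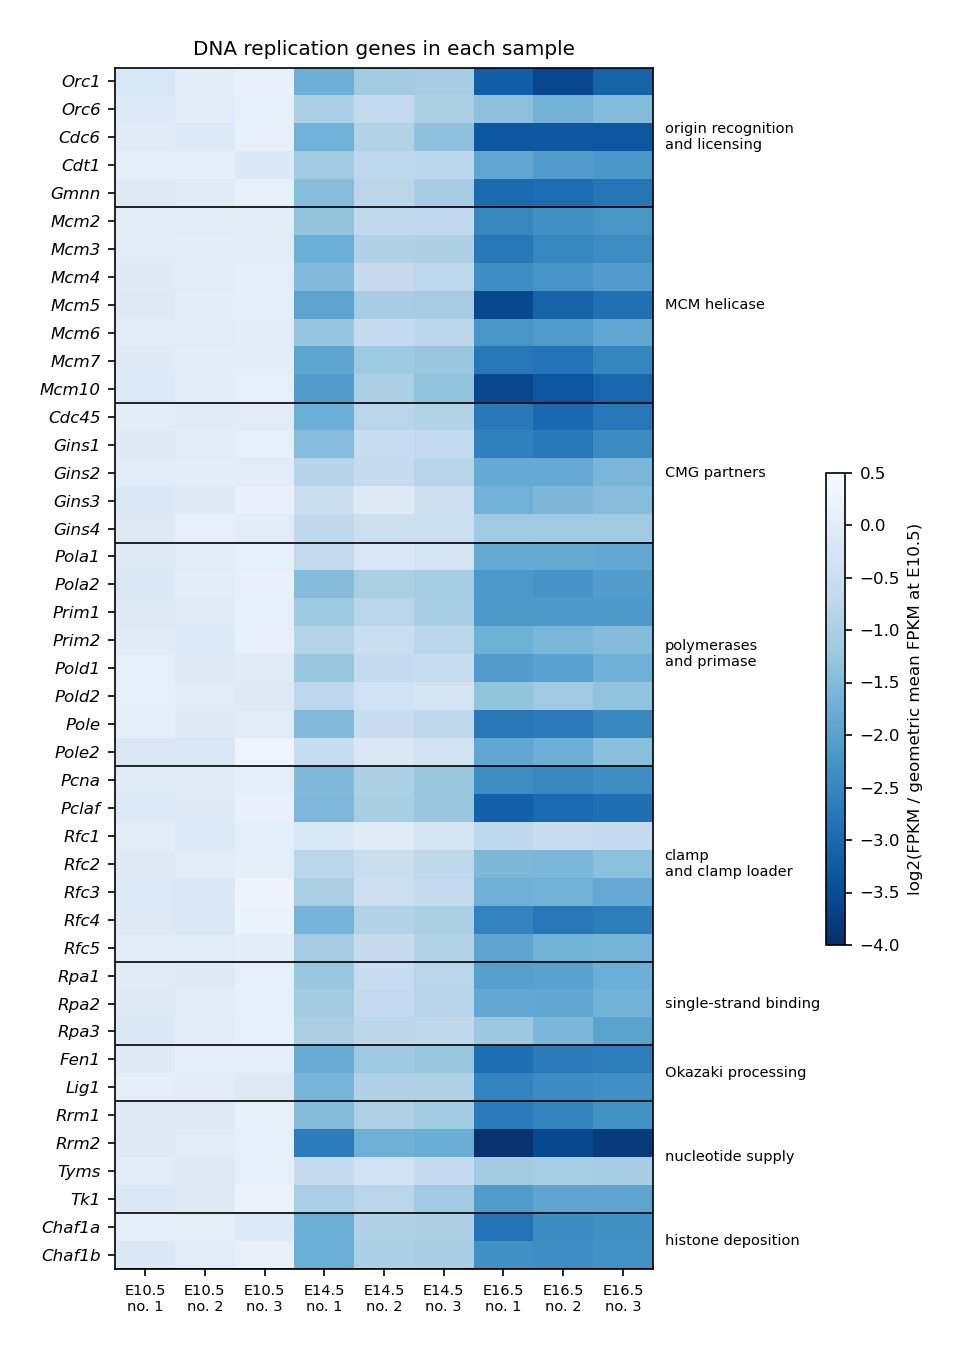
Level of each of the 43 genes in each of the 9 samples, as the log2 ratio of its FPKM to the geometric mean of its 3 E10.5 samples, with darker blue for lower values. Genes are grouped by role and the darkest cells are Rrm2, Mcm5, Mcm10, Orc1 and Cdc6 at E16.5, whereas Rfc1 stays pale in all 9 samples.

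The windows around the start sites of these genes shared sequence letters known from E2F and NF-Y binding. A window of 300 bases, 250 before and 50 after the start, was found in RefSeq (GRCm38.p6) for 35 of the 43 genes. The others were Gins1, Gins2, Gins4, Gmnn, Mcm4, Pole, Prim2 and Rfc2. The E2F letters TTTCCCGC, searched on both strands as TTTCCCGC or GCGGGAAA, occurred in 7 of the 35 (20%), in 1.24% of 27025 genes with a window and in 2.21% of the 11629 of these that were tested. The second E2F version, TTTGGCGC or GCGCCAAA, occurred in 6 of the 35 (17.1%), against 0.585% and 1.04%. Either version was present in 12 genes (34.3%), against 1.80% and 3.21%, namely Mcm3, Mcm5, Mcm6, Mcm7, Cdc6, Cdt1, Gins3, Pola1, Pold1, Pole2, Rfc3 and Pclaf. The NF-Y letters CCAAT or ATTGG occurred in 23 of the 35 (65.7%), against 41.1% and 42.8%. A match describes the letters only, and the binding of a factor was not measured.

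Below are the 250 bases before the start of 5 genes, written 5′ to 3′ along the strand of the gene, with the E2F and CCAAT letters in capitals. Mcm6 is shown for its 2 copies of TTTGGCGC, which begin 110 and 47 bases before the start, and Gins3 for GCGGGAAA 41 bases before it. Rrm2 is shown as the gene with the largest fall, Mcm10 as another of the largest falls, and Pold2 as one of the smallest falls. None of Rrm2, Mcm10 and Pold2 had E2F letters in the window. The stretches are chr1:128359706-128359955 on the minus strand for Mcm6, chr8:95633309-95633558 on the plus strand for Gins3, chr12:24708004-24708253 on the plus strand for Rrm2, chr2:5012792-5013041 on the minus strand for Mcm10 and chr11:5878257-5878506 on the minus strand for Pold2, all in GRCm38.p6.
Mcm6: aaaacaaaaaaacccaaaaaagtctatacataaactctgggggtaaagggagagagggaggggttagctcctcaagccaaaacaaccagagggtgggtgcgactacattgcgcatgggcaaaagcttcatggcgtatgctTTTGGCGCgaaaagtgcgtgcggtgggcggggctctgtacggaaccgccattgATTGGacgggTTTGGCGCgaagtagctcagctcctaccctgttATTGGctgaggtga
Gins3: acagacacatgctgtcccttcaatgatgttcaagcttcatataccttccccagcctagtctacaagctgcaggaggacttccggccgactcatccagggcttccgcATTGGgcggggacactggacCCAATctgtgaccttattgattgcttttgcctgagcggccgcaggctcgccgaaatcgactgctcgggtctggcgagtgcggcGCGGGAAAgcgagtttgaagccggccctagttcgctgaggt
Rrm2: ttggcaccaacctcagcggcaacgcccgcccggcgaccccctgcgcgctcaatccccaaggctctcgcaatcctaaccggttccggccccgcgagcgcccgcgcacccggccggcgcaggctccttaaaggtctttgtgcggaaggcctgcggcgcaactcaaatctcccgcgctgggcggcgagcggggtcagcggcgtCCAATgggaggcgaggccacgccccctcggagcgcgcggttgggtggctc
Mcm10: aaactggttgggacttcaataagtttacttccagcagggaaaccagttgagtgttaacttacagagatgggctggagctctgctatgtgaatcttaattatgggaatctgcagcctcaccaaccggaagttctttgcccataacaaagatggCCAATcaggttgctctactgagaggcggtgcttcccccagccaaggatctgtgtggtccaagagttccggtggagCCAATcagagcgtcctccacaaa
Pold2: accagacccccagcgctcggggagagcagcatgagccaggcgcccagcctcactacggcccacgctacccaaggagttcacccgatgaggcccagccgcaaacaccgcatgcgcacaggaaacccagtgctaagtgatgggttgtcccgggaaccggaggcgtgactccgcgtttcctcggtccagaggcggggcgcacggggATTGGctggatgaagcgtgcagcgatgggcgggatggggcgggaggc

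The libraries held 8745161 to 9069023 expected counts each. The 43 genes together took 0.6154% to 0.6597% of all counts in the pNC samples, 0.2427% to 0.3622% in the E14.5 corneas and 0.1276% to 0.1458% in the E16.5 corneas, and the lowest count of any of them in a sample was 18. Markers of the labelled tissues followed the labels. The summed level of 6 stroma and endothelium markers was 60.3 to 75.2 FPKM at E10.5 and 4766 to 4897 FPKM at E16.5, and that of 7 epithelial markers went from 30.6 to 38.5 FPKM to 5216 to 7559 FPKM. Slc4a11, a transporter of the corneal endothelium, went from 0.14 to 0.38 FPKM at E10.5 to 1.35 to 2.31 FPKM at E16.5. Of the other cell types checked, 5 red blood cell markers summed to 3902 to 6140 FPKM at E10.5, 157 to 655 FPKM at E14.5 and 9.40 to 15.7 FPKM at E16.5, with 5, 5 and 4 of the 5 falling in the 3 pairs of stages. Of the 4 vascular endothelium markers, Pecam1, Cdh5 and Tie1 fell in each pair of stages, whereas Kdr, at 26.8 ± 7.49, 30.3 ± 8.58 and 26.2 ± 3.96 FPKM (SD, n = 3 per stage), did not pass the test and made up most of their sum of 22.5 to 34.3 FPKM at E16.5 (68.5 to 122 FPKM at E10.5). The 5 leukocyte markers summed to 24.2 to 25.4 FPKM at E10.5, 44.9 to 61.6 FPKM at E14.5 and 22.8 to 25.6 FPKM at E16.5, and 3 of the 5 rose to E14.5. The 5 lens and optic cup markers summed to at most 13.3 FPKM in any sample. The part of these cell types in the fall of the replication genes was not tested.

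One library stood apart from its group. The median of the 43 genes, as the log2 ratio to their E10.5 mean, was -1.33 in E14.5 sample 1 and -0.74 and -0.89 in samples 2 and 3. It ran from -0.06 to 0.08 in the pNC samples and from -2.23 to -2.16 in the E16.5 corneas, so E14.5 sample 1 lay nearest to E16.5 among the E14.5 samples but did not reach it. In E14.5 sample 1, 40 of the 43 genes were at their lowest of the 3 samples, against 37.9% of all genes tested. The same sample had a summed stroma and endothelium level of 3985 FPKM, compared with 1600 and 1821 FPKM in the other E14.5 samples. Its epithelial sum was 2088 FPKM, compared with 619 and 744 FPKM, and its red blood cell sum was 157 FPKM, compared with 646 and 655 FPKM. The neural crest markers summed to 311 FPKM in it, compared with 461 and 502 FPKM, and the vascular endothelium markers to 41.2 FPKM, compared with 69.4 and 76.6 FPKM. Mpo, a granule enzyme of myeloid cells, was at 1.37 FPKM, below both other E14.5 samples, the higher of which had 28.1 FPKM. The part of these differences in the lower replication genes was not tested. Without this sample, 40 of the 43 genes fell from E10.5 to E14.5, where 26.5% of all genes did, and 12 rather than 20 fell at least 2-fold. From E14.5 to E16.5, 43 fell without it, against 23.1% of all genes, and 30 rather than 25 fell at least 2-fold.

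**Figure D2:**
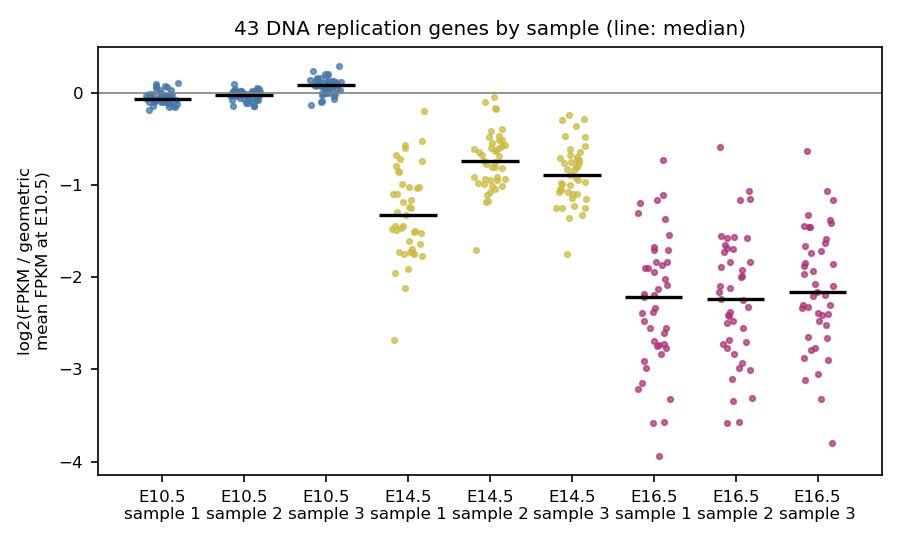
Log2 ratio of FPKM to the geometric mean of the E10.5 samples (y axis) for each of the 43 genes (points) in each of the 9 samples (x axis), with the median of the 43 as a line. The medians lie at -0.06 to 0.08 in the pNC samples, at -1.33, -0.74 and -0.89 in the E14.5 corneas and at -2.23 to -2.16 in the E16.5 corneas.

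The origin recognition and licensing genes had the lowest median of the role groups from E10.5 to E16.5. All 5 (Orc1, Orc6, Cdc6, Cdt1 and Gmnn) fell in every pair of stages, with a median log2 fold change of -1.09 to E14.5 and -2.75 to E16.5. Gene spans are given here in GRCm38.p6, the build the submitters named being GRCm38. Cdc6 (Entrez 23834, chr11:98907709-98923942), the ATPase that brings Cdt1 and the helicase to origins, was at 14.1, 13.3 and 15.7 FPKM at E10.5, at 4.42, 7.62 and 5.61 FPKM at E14.5 and at 1.43, 1.44 and 1.43 FPKM at E16.5. The 3 stages did not overlap, and the E16.5 samples were almost level with each other. Its log2 fold change to E16.5 was -3.18 ± 0.19 (SE, n = 3 per stage; edgeR adjusted p = 2.3e-07), which is 9.04-fold lower.

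Orc1 (Entrez 18392, chr4:108575705-108616030), the ATPase subunit of the origin recognition complex that varies most with the cell cycle, was at 7.07, 8.16 and 9.02 FPKM at E10.5, 2.44, 3.74 and 3.83 FPKM at E14.5 and 0.87, 0.67 and 0.93 FPKM at E16.5. Each stage lay wholly below the one before. Orc1 fell by 3.15 ± 0.23 on the log2 scale to E16.5 (SE, n = 3 per stage; edgeR adjusted p = 7.3e-07). Orc6 (Entrez 56452, chr8:85299632-85308279), the smallest subunit of the same complex, was at 47.5, 50.2 and 55.5 FPKM at E10.5, 25.6, 32.0 and 26.1 FPKM at E14.5 and 19.8, 16.3 and 18.5 FPKM at E16.5. Its groups did not overlap either, but its log2 fold change to E16.5 was only -1.34 ± 0.11 (SE, n = 3 per stage; edgeR adjusted p = 1.5e-06), and 66.2% of that fall had occurred by E14.5, the highest share among the 43 genes.

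Gmnn (Entrez 57441, chr13:24751845-24761937) encodes geminin, which binds Cdt1 and blocks a second round of licensing. It was the most abundant of the 5 at E10.5, with 51.5, 53.7 and 60.2 FPKM, followed by 20.2, 32.3 and 26.1 FPKM at E14.5 and 6.93, 7.2 and 7.98 FPKM at E16.5. The stages were separate, with E16.5 far under every earlier sample, and the log2 fold change to E16.5 was -2.75 ± 0.17 (SE, n = 3 per stage; edgeR adjusted p = 2.9e-07). Cdt1 itself fell by 1.91 ± 0.13 (SE, n = 3 per stage; edgeR adjusted p = 6.3e-07).

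All 7 genes of the MCM group fell in each pair of stages, and all 7 fell at least 2-fold both from E10.5 to E16.5 and from E14.5 to E16.5. Their median log2 fold changes were -1.19 to E14.5, -2.39 to E16.5 and -1.20 between the cornea stages. Mcm7 (Entrez 17220, chr5:138164583-138172111), a subunit of the helicase ring, was at 140.0, 146 and 149 FPKM at E10.5, 38.6, 64.3 and 61.0 FPKM at E14.5 and 21.3, 20.4 and 25.3 FPKM at E16.5. The stages were separate, with E14.5 sample 1 closest to E16.5. Its fall to E16.5 was 5.87-fold, a log2 fold change of -2.55 ± 0.18 (SE, n = 3 per stage; edgeR adjusted p = 5.7e-07).

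Mcm5 (Entrez 17218, chr8:75109468-75128439), another ring subunit, was at 107, 117 and 121 FPKM at E10.5, 29.6, 54.6 and 53.8 FPKM at E14.5 and 9.70, 13.3 and 15.7 FPKM at E16.5. The lowest E14.5 sample was thus well above the highest E16.5 sample. It fell by 3.01 ± 0.24 on the log2 scale to E16.5 (SE, n = 3 per stage; edgeR adjusted p = 1.5e-06), the largest fall of the ring subunits. Mcm10 (Entrez 70024, chr2:4990724-5012791), which helps the loaded helicase to begin unwinding, was at 22.8, 24.7 and 25.7 FPKM at E10.5, 5.62, 12.1 and 9.71 FPKM at E14.5 and 2.04, 2.40 and 2.94 FPKM at E16.5. Again no stage overlapped another, and its log2 fold change to E16.5 was -3.16 ± 0.25 (SE, n = 3 per stage; edgeR adjusted p = 1.3e-06).

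The ring subunits did not keep their order across the stages, although they are assembled in equal numbers. Mcm7 was the highest and Mcm4 the lowest of the ring subunits in all 3 E10.5 samples, with 1.76 to 1.81 times as many FPKM. At E14.5 Mcm6 was the highest and Mcm3 the lowest in all 3 samples, 1.52 to 1.79 times apart. At E16.5 Mcm6 was again the highest and Mcm5 the lowest in all 3 samples, 1.95 to 2.5 times apart. These comparisons were chosen after the values were seen and are given with no test. Mcm6 was at 112 ± 1.91, 61.5 ± 13.7 and 26.9 ± 3.26 FPKM at the 3 stages (SD, n = 3 per stage), and its fall of 1.91 on the log2 scale to E16.5 was the smallest of the group.

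**Figure D3:**
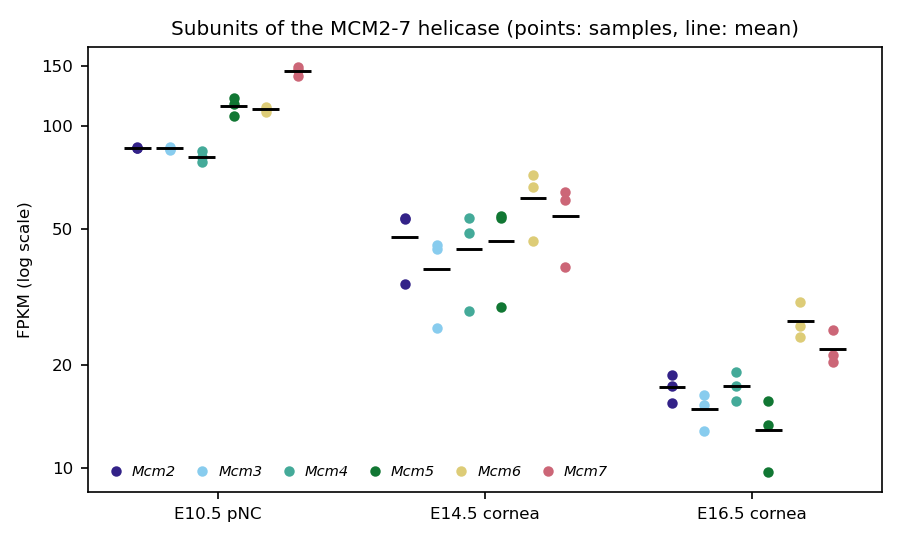
FPKM on a log axis of the helicase ring genes Mcm2 to Mcm7 in the E10.5 pNC and the E14.5 and E16.5 cornea, with 3 samples per stage as points and the mean as a line. Mcm7 is highest at E10.5 (145 FPKM on average) and Mcm6 at E14.5 (61.5 FPKM) and E16.5 (26.9 FPKM), while Mcm5 goes from 115 to 12.9 FPKM.

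Cdc45 and the 4 GINS genes, whose products join the ring to form the active helicase, all fell in each pair of stages. Their median log2 fold changes were -0.77 to E14.5 and -1.60 to E16.5, and Cdc45 had the largest fall to E16.5, by 2.67 ± 0.21 (SE, n = 3 per stage; edgeR adjusted p = 1.2e-06). Gins2 (Entrez 272551, chr8:120581266-120589075) was the most abundant, at 52.6, 53.8 and 53.2 FPKM at E10.5, 29.7, 34.9 and 29.8 FPKM at E14.5 and 14.9, 14.9 and 17.7 FPKM at E16.5. Its samples were close within each stage and far apart between stages, with a log2 fold change of -1.60 ± 0.10 to E16.5 (SE, n = 3 per stage; edgeR adjusted p = 3.6e-07).

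Gins4 (Entrez 109145, chr8:23226610-23237668) was at 35.5, 40.2 and 37.3 FPKM at E10.5, 22.9, 27.2 and 26.9 FPKM at E14.5 and 16.8, 16.9 and 16.8 FPKM at E16.5. No samples overlapped, but its log2 fold change to E16.5 was -1.01 ± 0.10 (SE, n = 3 per stage; edgeR adjusted p = 5.7e-06), barely past the 2-fold limit. Gins1 and Gins4 belong to the same complex with one of each per helicase, yet Gins1 was 5.64-fold lower at E16.5 and Gins4 2.02-fold, a difference that was not tested. In Gins3, one E14.5 sample at 10.45 FPKM lay above the lowest E10.5 sample at 10.28 FPKM, and its change to E14.5 was -0.37 ± 0.14 (SE, n = 3 per stage; edgeR adjusted p = 0.0461).

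Of the 8 polymerase and primase genes, 7 fell from E10.5 to E14.5 and 8 in the other pairs, with medians of -0.76 to E14.5 and -1.74 to E16.5. Pole2, the second subunit of polymerase epsilon, was the exception at E14.5, with a log2 fold change of -0.38 ± 0.17 (SE, n = 3 per stage; edgeR adjusted p = 0.0777). Prim1 (Entrez 19075, chr10:128015215-128030030), the catalytic primase subunit, was the most abundant, at 47.4, 48.5 and 54.4 FPKM at E10.5, 21.96, 28.6 and 24.2 FPKM at E14.5 and 11.0, 11.2 and 11.2 FPKM at E16.5. The stages were far apart, and the change to E16.5 was -2.02 ± 0.11 (SE, n = 3 per stage; edgeR adjusted p = 1.6e-07).

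Pold2 (Entrez 18972, chr11:5872180-5878256), the accessory subunit of polymerase delta, was at 46.8, 43.4 and 41.3 FPKM at E10.5, 26.3, 32.9 and 35.9 FPKM at E14.5 and 17.8, 19.5 and 17.6 FPKM at E16.5. The groups were separate, and the change to E16.5 was -1.11 ± 0.12 (SE, n = 3 per stage; edgeR adjusted p = 1.5e-05). Pold2 shares part of its span with Aebp1, which had a mean count of 1032 beside 451.8 for Pold2. The paper reports Aebp1 as upregulated, and its effect on the Pold2 values was not tested. The catalytic subunits Pole, Pold1 and Pola1 changed by -2.48, -1.77 and -1.70, respectively, to E16.5, each past the test. Pola1 and Pole2 had changed by the smallest share of their fall by E14.5, at 22.3% and 24.9%.

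The clamp and its partners included the most abundant of the 43 genes. Pcna (Entrez 18538, chr2:132249286-132253180) was at 294, 295 and 314 FPKM at E10.5, 106, 151 and 126 FPKM at E14.5 and 57.6, 54.1 and 57.7 FPKM at E16.5. Each stage was clearly separate from the next, and Pcna fell by 2.27 ± 0.12 on the log2 scale to E16.5 (SE, n = 3 per stage; edgeR adjusted p = 1.4e-07). Pclaf (Entrez 68026, chr9:65890323-65903551), a small protein that binds Pcna, was at 124, 127 and 149 FPKM at E10.5, 46.2, 64.6 and 55.9 FPKM at E14.5 and 15.0, 16.8 and 17.8 FPKM at E16.5. Its stages were as separate, with a 7.28-fold fall to E16.5 and a log2 fold change of -2.86 ± 0.14 (SE, n = 3 per stage; edgeR adjusted p = 8.0e-08).

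The genes of the 5 clamp loader subunits fell by very different amounts. Rfc1 (Entrez 19687, chr5:65261852-65338617), the large subunit, was at 32.6, 29.7 and 33.7 FPKM at E10.5, 28.0, 31.0 and 27.0 FPKM at E14.5 and 19.4, 21.3 and 20.6 FPKM at E16.5. The E14.5 samples overlapped those at E10.5, and its change to E14.5 of -0.17 ± 0.08 did not pass the test (SE, n = 3 per stage; edgeR adjusted p = 0.1). Its change to E16.5 of -0.50 ± 0.08 did (SE, n = 3 per stage; edgeR adjusted p = 3.1e-04), and was the smallest of the 43 genes. Its change from E14.5 to E16.5 of -0.33 ± 0.08 passed the test (SE, n = 3 per stage; edgeR adjusted p = 0.0133), but not without E14.5 sample 2 (adjusted p = 0.0581) or E16.5 sample 1 (adjusted p = 0.062).

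Rfc2 (Entrez 19718, chr5:134582690-134598328) was at 73.7, 77.8 and 80.8 FPKM at E10.5, 44.7, 54.4 and 46.9 FPKM at E14.5 and 26.6, 26 and 29.8 FPKM at E16.5. Its stages were separate, and it fell by 1.35 ± 0.09 on the log2 scale to E16.5 (SE, n = 3 per stage; edgeR adjusted p = 5.7e-07). Rfc3, Rfc4 and Rfc5 changed by -1.60, -2.51 and -1.60 to E16.5, each past the test. The ratio of Rfc1 to Rfc4 in FPKM was 0.723 ± 0.0577 in the pNC, 1.5 ± 0.411 in the E14.5 cornea and 2.92 ± 0.347 in the E16.5 cornea (SD, n = 3 per stage), with no overlap between stages. This pair was chosen after its values were seen, and its ratio is given with no test. Rfc4 shares part of its span with Eif4a2, a far more abundant gene that encodes a translation factor.

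The 3 genes of replication protein A, the complex that coats unwound DNA, fell in each pair of stages and stayed close to one another. Their log2 fold changes ran from -0.87 to -0.85 to E14.5 and from -1.77 to -1.40 to E16.5. Rpa1 (Entrez 68275, chr11:75300259-75348454), the large DNA-binding subunit, was at 58.1, 57.3 and 62.9 FPKM at E10.5, 25.0, 39.7 and 34.0 FPKM at E14.5 and 14.7, 14.9 and 17.8 FPKM at E16.5. The E14.5 samples were spread but stayed between the other stages, and Rpa1 fell by 1.77 ± 0.15 to E16.5 (SE, n = 3 per stage; edgeR adjusted p = 2.4e-06).

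Fen1 and Lig1, which trim and join Okazaki fragments on the lagging strand, fell at least 2-fold in all 3 pairs of stages. Lig1 (Entrez 16881, chr7:13277175-13311426) was at 78.8, 76.1 and 72.5 FPKM at E10.5, 24.9, 39.8 and 39.4 FPKM at E14.5 and 13.0, 14.2 and 15.0 FPKM at E16.5. Its stages were separate, and its change to E16.5 was -2.28 ± 0.17 (SE, n = 3 per stage; edgeR adjusted p = 8.1e-07). Fen1 changed by -2.63 ± 0.15 (SE, n = 3 per stage; edgeR adjusted p = 2.2e-07).

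The nucleotide supply genes held both the largest fall and one of the smallest. Rrm2 (Entrez 20135, chr12:24708254-24714146), the small subunit of ribonucleotide reductase, the enzyme that makes deoxyribonucleotides, was at 148, 152 and 165 FPKM at E10.5, 24.2, 47.5 and 46.1 FPKM at E14.5 and 10.2, 13.0 and 11.2 FPKM at E16.5. The drop to E14.5 was already larger than that of any of the other genes, and E14.5 sample 1 was the lowest of its stage. Its log2 fold change was -2.0 ± 0.22 to E14.5 (SE, n = 3 per stage; edgeR adjusted p = 2.9e-05) and -3.61 ± 0.24 to E16.5 (adjusted p = 4.1e-07, same test), which is 12.2-fold lower.

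Tyms (Entrez 22171, chr5:30038546-30073645), thymidylate synthase, was at 58.2, 55.9 and 62.3 FPKM at E10.5, 38.9, 44.6 and 38.6 FPKM at E14.5 and 27.2, 28.2 and 28.1 FPKM at E16.5. The stages did not overlap, but the change to E16.5 was only -0.93 ± 0.08 (SE, n = 3 per stage; edgeR adjusted p = 2.8e-06). Thymidine kinase Tk1, the salvage route to the same nucleotide, changed by -1.85. The reductase subunits shifted against each other. The ratio of Rrm2 to Rrm1 was 1.54 ± 0.0444 in the pNC, 0.862 ± 0.175 in the E14.5 cornea and 0.653 ± 0.108 in the E16.5 cornea (SD, n = 3 per stage), where E10.5 was separate and the cornea stages overlapped. The ratio of Gmnn to Cdt1 was 1.75 ± 0.284, 1.51 ± 0.169 and 0.979 ± 0.169 at the 3 stages (SD, n = 3 per stage), where only E16.5 was separate. Both pairs were chosen after their values were seen and are given with no test.

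Chaf1a and Chaf1b, subunits of the chromatin assembly factor that places histones behind the fork, fell in each pair of stages. Chaf1a (Entrez 27221, chr17:56040416-56068026) was at 49.96, 49.4 and 44.6 FPKM at E10.5, 14.47, 25.1 and 24.2 FPKM at E14.5 and 6.71, 8.99 and 9.59 FPKM at E16.5. No samples of different stages overlapped, and its change to E16.5 was -2.36 ± 0.20 (SE, n = 3 per stage; edgeR adjusted p = 2.4e-06). Chaf1b changed by -2.19 ± 0.18 (SE, n = 3 per stage; edgeR adjusted p = 1.7e-06).

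**Figure D4:**
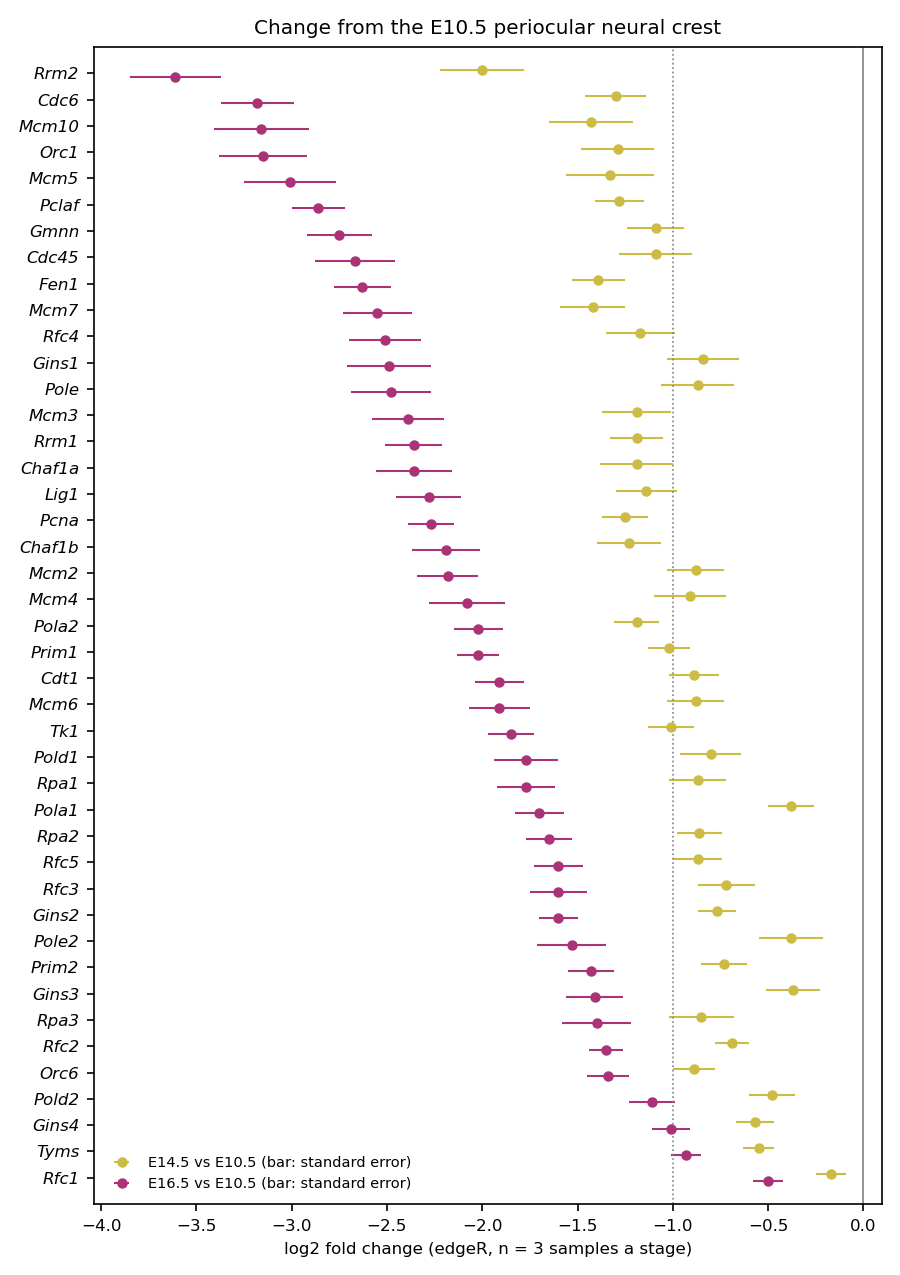
Log2 fold change (x axis) of each of the 43 genes (y axis, ordered by the change to E16.5) in E14.5 and E16.5 cornea against E10.5 pNC, with the standard error derived from the edgeR test as a bar and a dotted line at the 2-fold limit. The changes to E16.5 run from -3.61 for Rrm2 to -0.50 for Rfc1, and all but Tyms and Rfc1 pass the limit.

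How much of the fall came before E14.5 depended on the E14.5 samples. The share of the log2 fall to E16.5 that had occurred by E14.5 had a median of 48.4% over the 43 genes, from 22.3% for Pola1 to 66.2% for Orc6, and was over 50% for 18 genes. Without E14.5 sample 1 the median was 40.3% and 5 genes were over 50%, without E14.5 sample 2 it was 52.7% with 27 genes, and without E14.5 sample 3 it was 50.6% with 25 genes. With each of the other samples left out, it lay between 46.7% and 49.9%, with 13 to 21 genes. In the fit to all samples the share was low for Pola1, Pole2, Gins3, Gins1 and Rfc1, which all lay at 34.9% or less, and high for Pola2 (58.9%), Rpa3 (60.4%) and Orc6. These shares are ratios of fitted changes that share the E10.5 samples and have no test.

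Among 54 other genes of DNA replication, 41 fell from E10.5 to E14.5, 46 from E10.5 to E16.5 and 38 from E14.5 to E16.5, where 27.5%, 34.7% and 17.5% of all genes tested fell. Their medians were -0.64, -1.23 and -0.58 on the log2 scale. The largest falls to E16.5 were of Dna2 (-2.88), a nuclease of Okazaki fragment processing, Nasp (-2.80), a histone chaperone, Uhrf1 (-2.71), which guides methylation of newly made DNA, Recql4 (-2.57), a helicase of replication start, Chtf18 (-2.48), of an alternative clamp loader, and Top2a (-2.46), a topoisomerase. Each passed the test.

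The genes of this list that rose were 2, 3 and 2 in the 3 pairs of stages, where 28.9%, 35.2% and 17.5% of all genes tested rose. Pold4, the smallest subunit of polymerase delta, was at 5.86, 5.44 and 3.23 FPKM at E10.5, 10.51, 8.1 and 6.02 FPKM at E14.5 and 13.6, 12.7 and 13.2 FPKM at E16.5. The stages did not overlap, and its log2 fold change to E16.5 was 1.58 ± 0.24 (SE, n = 3 per stage; edgeR adjusted p = 1.6e-04), opposite to Pold1 and Pold2. Pole4, a small subunit of polymerase epsilon, had a change of 0.48 ± 0.09 to E14.5 (SE, n = 3 per stage; edgeR adjusted p = 8.0e-04) and 0.43 ± 0.09 to E16.5 (adjusted p = 0.0011, same test). Rrm2b, the reductase subunit used outside S phase, went from 2.27 ± 0.169 to 3.19 ± 0.335 FPKM between E10.5 and E16.5 (SD, n = 3 per stage), a change of 0.64 ± 0.14 (SE; edgeR adjusted p = 0.002), while Rrm2 fell. Among genes that did not pass the test in any pair were Orc4, with a change to E16.5 of -0.14 ± 0.09 (SE, n = 3 per stage; edgeR adjusted p = 0.185), Mcm9 (0.27 ± 0.16, adjusted p = 0.147, same test) and the mitochondrial thymidine kinase Tk2 (-0.08 ± 0.12, adjusted p = 0.602, same test).

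Of 26 genes that control replication through E2F, Rb-family proteins and S phase kinases, 20, 21 and 16 fell in the 3 pairs of stages, against the same 27.5%, 34.7% and 17.5% of all genes. The largest falls to E16.5 were of Mycn (-3.11), a growth-promoting transcription factor, Ccne1 (-2.79), the cyclin that drives entry into S phase, Mybl2 (-2.62), a cell cycle transcription factor, and E2f2 (-2.42). Those that rose were 1, 4 and 3 of the 26, where 28.9%, 35.2% and 17.5% of all genes rose, so rises were no more common here than over all genes. Rbl2, which encodes the p130 protein that holds E2F genes off in resting cells, was at 3.11, 2.39 and 3.01 FPKM at E10.5, 9.72, 9.57 and 8.53 FPKM at E14.5 and 10.7, 11.6 and 11.5 FPKM at E16.5. Each later stage lay above the one before, with log2 fold changes of 1.69 ± 0.11 to E14.5 (SE, n = 3 per stage; edgeR adjusted p = 1.0e-06) and 2.14 ± 0.11 to E16.5 (adjusted p = 1.3e-07, same test). From E14.5 to E16.5 the genes that rose were Rbl2 (0.45), Cdkn1a (3.0) and Cdkn1c (1.33).

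All 3 CDK inhibitor genes on the list rose from E10.5 to E16.5, where 35.2% of all genes tested rose. They are among the 4 of the 26 regulators already counted as rising in this pair. Cdkn1a, which encodes p21, was at 3.33, 3.36 and 3.45 FPKM at E10.5, 4.96, 0.89 and 2.11 FPKM at E14.5 and 26.6, 15.3 and 15.3 FPKM at E16.5. The E14.5 samples lay on both sides of E10.5, and E16.5 was above all of them, with a change from E10.5 of 2.64 ± 0.41 (SE, n = 3 per stage; edgeR adjusted p = 1.8e-04). Cdkn1c, which encodes p57, was at 200.1, 199 and 191 FPKM at E10.5, 191, 106 and 111 FPKM at E14.5 and 356, 274 and 290 FPKM at E16.5. E14.5 sample 1, the sample with the lowest replication genes, was the highest of its stage for Cdkn1a and Cdkn1c. The same sample was the highest of its stage for 40.2% of all genes tested. A link between these inhibitors and the replication genes was not tested. From E10.5, Cdkn1c fell by 0.55 ± 0.19 to E14.5 (SE, n = 3 per stage; edgeR adjusted p = 0.0325) and changed by 0.78 ± 0.19 to E16.5 (adjusted p = 0.00385, same test). Cdkn1b, which encodes p27, changed by 0.33 ± 0.12 to E16.5 (SE, n = 3 per stage; edgeR adjusted p = 0.0258), and its samples overlapped.

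The mitosis genes, the nearest other cell cycle list, are given only beside the replication genes, with no test of a difference. Of 26 mitosis genes, 25, 26 and 26 fell in the 3 pairs of stages, with medians of -0.96, -2.12 and -1.25, beside -0.89, -2.02 and -1.04 for the 43 replication genes. Their changes to E16.5 ran from -3.0 to -1.27, a narrower range than the -3.61 to -0.50 of the replication genes.

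**Figure D5:**
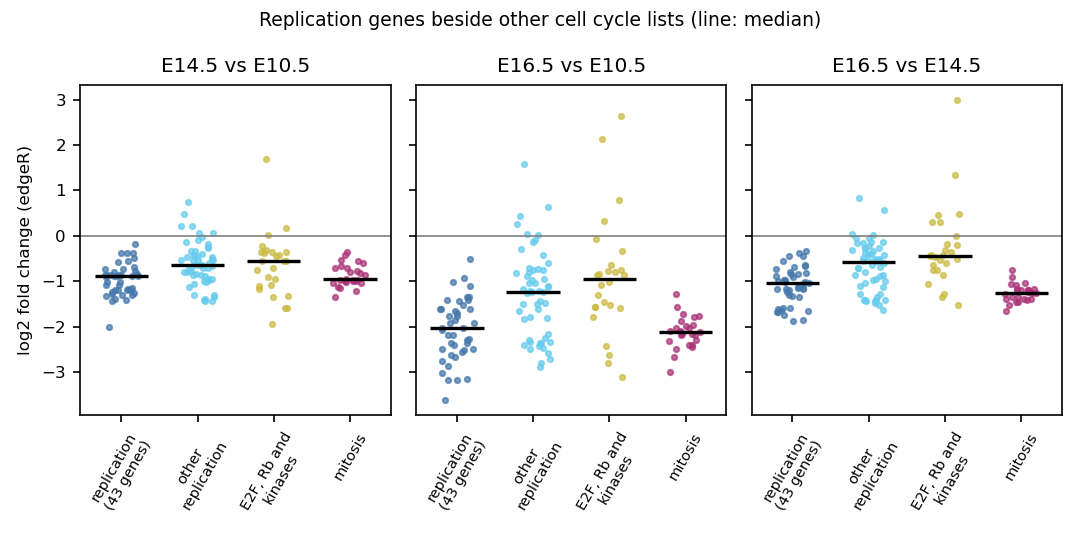
Log2 fold change (y axis, edgeR) of each gene in 4 lists (x axis: the 43 replication genes, 54 other replication genes, 26 regulators and 26 mitosis genes) for the 3 pairs of stages, with the median as a line. All points of the 43 replication genes and of the mitosis genes lie below 0 in each panel, while the other 2 lists also hold genes above 0, up to 3.0 for Cdkn1a from E14.5 to E16.5.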

How the data were processed

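RNA-Seq libraries from poly(A) RNA of 3 stages with 3 replicates each were analysed. As described for the study and in the submitters' processing notes, the authors aligned reads with HISAT and Bowtie2 to GRCm38 and quantified genes with RSEM; versions are not given in the sources used here. The deposited expected count of a gene is an estimate that is not normalized, and the deposited FPKM, made by the authors, is scaled to transcript length and library total. A gene not listed in a sample was taken as 0. Symbols and coordinates came from RefSeq (GRCm38.p6) for 19312 of 19369 identifiers.

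Expected counts were rounded, filtered with filterByExpr, scaled with TMM and fitted with a stage model to all 9 samples in edgeR 4.0.16 (R 4.3.3), with Benjamini-Hochberg adjustment over all genes tested. Each standard error was taken as the absolute log2 fold change divided by the square root of the F statistic of the test. It thus rests on the spread fitted over all 9 samples, not on that of a single stage. The script was tested on simulated data with the same spread at every stage. That check does not cover the larger spread at E14.5 in these data. The 43 genes and the other lists were chosen with earlier results of these data known. Values per sample are given for the most abundant gene of each role group and for the 6 largest and 6 smallest changes from E10.5 to E16.5, and of the other lists for up to 6 falls and all rises; genes named beyond this were chosen after their values were seen. The labels call the samples biological replicates of pooled tissue, so p-values measure the spread between pools. Alternatives were DESeq2 1.42.0, limma 3.58.1 on log2(FPKM + 1) and log2(FPKM + 0.1), other scalings, no filter, a replicate block, only the 2 stages compared, each sample left out, and the NOISeq probability that the study used, recomputed from FPKM with zeros set to 0.01. The ratios between members, and the share of the fall by E14.5 with each sample left out, were added after seeing the data. No pair of replicates was identical. Strand handling is not given in the sources used here, and 13 of the 43 genes share part of their span with another gene in the files, Orc1, Mcm7, Pold2, Pclaf, Rfc4, Gins2, Rpa1, Lig1 and Chaf1a among them. Protein motifs were not searched here.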

Additional observations from a re-analysis of the deposited data

How the results depend on the processing

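A median over the 43 genes was called moved when it shifted by at least the pooled SD of the per-sample medians, 0.182. The limits for counts were wide. With scaling by library totals, 31 genes in place of 25 fell at least 2-fold from E14.5 to E16.5, which was not called moved. Of the counts and medians over the 43 genes, 1 moved past these limits: without E14.5 sample 1, 12 genes in place of 20 fell at least 2-fold from E10.5 to E14.5. With each sample left out in turn, this count ran from 12 to 24, against 40 to 41 from E10.5 to E16.5 and 21 to 30 from E14.5 to E16.5. The number that fell ran from 39 to 41, 43 to 43 and 41 to 43 in the 3 pairs, and the medians from -1.04 to -0.76, -2.10 to -1.98 and -1.21 to -0.97. Scaling by library totals moved the median of all genes to -0.15 from E10.5 to E16.5 and to -0.19 from E14.5 to E16.5, and the share of falls among all calls from 49.6% to 57.7% and from 50.1% to 73.2%; 40, 43 and 43 of the 43 genes then fell. The recomputed NOISeq probability with a 2-fold change called 18, 42 and 29 of the 43 genes lower, against 2.81%, 10.1% and 2.12% of all genes. Deviations of samples with the same replicate number had a mean correlation of -0.0163 over 9 pairs (-0.225 to 0.25), beside 0.0091 over the 18 other pairs. Between E14.5 and E16.5 the same-numbered pairs had 0.25, 0.12 and 0.0579, and the other pairs -0.207 to 0.111. Same-numbered pairs with E10.5 had -0.225 to -0.0147. A fit with the replicate numbers as a block gave 42, 43 and 42 genes that fell, 20, 41 and 25 at least 2-fold, and medians of -0.91, -2.02 and -1.04. Of 840 recomputed values of 20 named genes, 838 kept direction and side of the threshold; Rfc1 from E14.5 to E16.5 did not pass without E14.5 sample 2 (-0.28, edgeR adjusted p = 0.0581) or without E16.5 sample 1 (-0.28, edgeR adjusted p = 0.062). The cause was not tested. The common dispersion was 0.0396 at E14.5, beside 0.0113 at E10.5 and 0.00606 at E16.5.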
